A study of Mus musculus with 8 samples.

Results

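The genes described here are cytosolic aminoacyl-tRNA synthetases, the enzymes that load each amino acid onto its transfer RNA for protein synthesis. The list named 10 genes (Aars, Iars, Lars, Yars, Eprs, Tars, Sars, Gars, Wars and Nars), and a gene was used when the array held a row paired with its symbol alone. That held for 9 of the 10, out of 19938 genes with such a row. Aars was not analysed here, because its row also carried the symbol Exosc6. Iars had 2 rows, of which the brighter was used, and the other 8 genes had 1 row each.

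Each synthetase recognises its own amino acid, and the family falls into 2 structural classes that bind ATP in different folds. Of the 9 genes, Iars, Lars, Yars and Wars encode class I enzymes for isoleucine, leucine, tyrosine and tryptophan, and Tars, Sars, Gars and Nars encode class II enzymes for threonine, serine, glycine and asparagine. Eprs encodes a fused enzyme for glutamate and proline with a domain of each class. The products of Eprs, Iars and Lars sit in the multisynthetase complex, a cytosolic assembly of several synthetases held together by scaffold proteins. Several synthetase genes are known targets of ATF4, the transcription factor of the integrated stress response, which cells switch on when amino acids run short or the endoplasmic reticulum is stressed. Wars is also known as a gene induced by interferon-γ in macrophages.

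Transcripts were measured in peritoneal macrophages washed from the peritoneum of wild-type C57/Bl6 mice, with the cells of 10 mice pooled and held overnight in RPMI medium with 5% FCS. Both basal groups were left untreated in that medium for 6 h (Basal_6h) or 24 h (Basal_24h). Both treated groups received 1 µg/ml of HRG for 6 h (HRG_6h) or 24 h (HRG_24h), where HRG is the recombinant form of the blood protein histidine-rich glycoprotein, a ligand of heparan sulphate and zinc. Every group held 2 samples with 1 Affymetrix array each, so 8 arrays in all, and the labels give neither the age nor the sex of the mice. Each sample is listed with 10 pooled mice, so all may come from 1 pool, and nothing says how separately the replicates were cultured. P-values here therefore reflect only the scatter between arrays, which may be technical.

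Macrophage markers were bright, with mean levels of Lyz2, Adgre1, Cd68 and Csf1r at percentiles from 99.6 to 99.95 of all genes, Itgam at 99.2, Cd14 at 98.9, Gata6 at 88.3 and Icam2 at 67.4. B cell markers stood at percentiles from 54.0 (Blk) to 85.3 (Cd79b), and T cell markers from 21.8 (Cd3d) to 67.0 (Cd3e). Mast cell markers ran from 66.0 (Fcer1a) to 92.4 (Tpsb2), and dendritic cell markers from 19.6 (Xcr1) to 83.1 (Ccr7). Neutrophil markers ran from 21.0 (Ly6g) to 60.0 (S100a8), and mesothelial and fibroblast markers from 27.5 (Krt19) to 94.3 (Dcn). So the cultures were not macrophages alone by these transcripts. In RNA of a whole culture, fewer cells of a type and less RNA per cell cannot be told apart. Array medians ran from 7.18 to 7.29 on the log2 scale, and replicate arrays correlated at r = 0.996 to 0.998 across rows, which are not independent.

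Sequences at the starts of these genes are shown because the synthetase transcripts moved together and because ATF4 pairs with C/EBP proteins on a known composite site. RefSeq promoter windows (GRCm38.p6, 250 bases before to 50 after the listed transcription start) were at hand for 6 of the 9 genes. They were searched on both strands for TGATGNAA (reverse complement TTNCATCA), the common letters of C/EBP-ATF response elements. Windows of Yars, Gars, Iars and Tars held 1 match each, which is 4 of 6 genes (66.7%). Of all genes with a window of the same length, 1219 of 27025 (4.51%) held a match in any window. Because the pattern was chosen after the windows had been seen, these shares are a description and not a test. Each match is shown in capitals within 30 bases of the gene's strand, 5′ to 3′.

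Yars, chr4:129189895-129189924 (+), match at bases 4 to 11 after the start: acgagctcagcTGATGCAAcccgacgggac

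Iars, chr13:49682126-49682155 (+), match at bases 8 to 15 after the start: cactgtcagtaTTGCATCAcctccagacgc

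Tars, chr15:11399655-11399684 (-), match from 15 to 8 bases before the start: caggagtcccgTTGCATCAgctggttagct

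Gars, chr6:55037960-55037989 (+), match from 30 to 23 bases before the start: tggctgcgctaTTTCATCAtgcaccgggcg

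The matches in Iars and Tars were the same 8 letters, the match in Yars was their reverse complement, and Gars differed from them inside the match. Eprs (chr1:185362794-185363093, + strand) and Sars (chr3:108445210-108445509, - strand) had no match in their windows, which says only that these letters are not there. Lars, Wars and Nars are named without a sequence. Among other lists, 5 of 15 windowed genes of the ATF4 list held the letters (Atf3, Trib3, Chac1, Nupr1 and Vldlr), as did 2 of 9 amino acid synthesis genes (Asns and Pycr1), 2 of 7 amino acid transporters (Slc7a11 and Slc1a4), 0 of 7 other cytosolic synthetases and 0 of 14 mitochondrial synthetases. Of the genes in these lists with the letters, Trib3, Chac1, Asns and Slc1a4 were lower with HRG at 6 h. Atf3, Nupr1, Vldlr and Slc7a11 were not called there, and Pycr1 was not measured. Ddit3, Ppp1r15a and Mthfd2 were lower and held no match in their windows. A link between letters and calls was not tested. The pattern was chosen after the windows had been seen, and a match of letters is a description, not a bound site. For context, the 250 bases before the start are given for the 2 genes whose match lies there.

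Tars, chr15:11399659-11399908 (-): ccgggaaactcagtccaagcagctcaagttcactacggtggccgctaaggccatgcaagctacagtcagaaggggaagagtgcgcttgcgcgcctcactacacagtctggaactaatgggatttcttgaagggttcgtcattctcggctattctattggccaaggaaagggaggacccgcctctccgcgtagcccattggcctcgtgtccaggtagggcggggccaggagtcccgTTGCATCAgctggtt

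Gars, chr6:55037751-55038000 (+): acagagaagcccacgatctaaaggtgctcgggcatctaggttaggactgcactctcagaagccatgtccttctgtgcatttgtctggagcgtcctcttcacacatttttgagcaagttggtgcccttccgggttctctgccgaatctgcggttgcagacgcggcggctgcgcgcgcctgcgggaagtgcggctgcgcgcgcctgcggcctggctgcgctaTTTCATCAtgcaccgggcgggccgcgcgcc

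All 9 synthetases had their highest mean level in Basal_6h and their lowest in HRG_24h, as did 2385 of all 19938 genes. In 6 genes HRG_6h ranked above Basal_24h, and in Eprs, Sars and Nars it ranked below. The arrays of the highest group lay apart from those of the next group in 9 of 9 genes (5981 of all genes). Both middle groups lay apart in 5 (5310 of all genes) and overlapped in Yars, Eprs, Gars and Wars. The lowest group lay apart from the group above it in 7 (5554 of all genes) and overlapped with it in Tars and Sars. Group means of one gene spanned from 0.52 (Nars) to 1.22 (Yars) on the log2 scale.

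**Figure D1:**
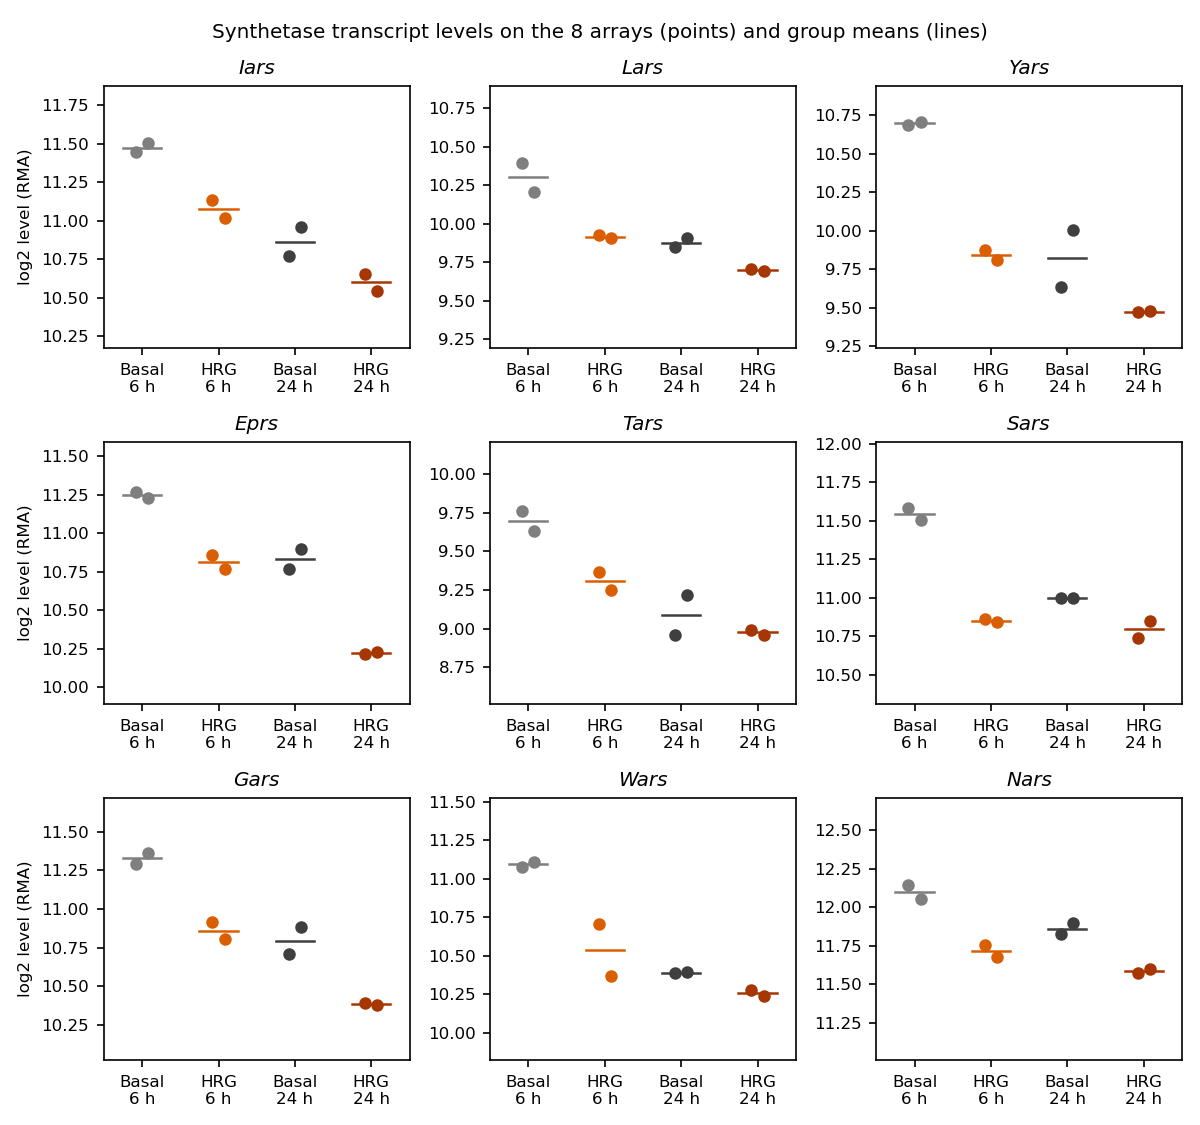
Log2 level (RMA values, vertical axes of equal length) of the 9 synthetase transcripts on each of the 8 arrays (points), with group means (lines), for basal and HRG-treated macrophages at 6 h and 24 h. In every panel both basal 6 h arrays lie above the other 6 arrays, and Yars has the widest span of group means, 1.22.

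The comparison at 6 h asks what HRG did early in culture. Transcripts of Yars, Sars, Wars and Gars fell with HRG, by 1.81-fold, 1.62-fold, 1.47-fold and 1.38-fold, and 5 synthetases did not pass. So 4 of 9 were called lower and 0 higher by limma with Benjamini-Hochberg adjustment over all genes (adjusted p under 0.05), where 1.25% of all genes were called, 0.818% lower and 0.431% higher. At an unadjusted p under 0.05, 9 were lower and 0 higher, beside 6.27% of all genes lower and 4.73% higher. The 9 differences had a median of -0.43 on the log2 scale, beside 0.02 for all genes tested, and ran from -0.86 to -0.38.

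Yars, which charges tyrosine, read 10.69 and 10.71 on the basal 6 h arrays and 9.87 and 9.81 on the HRG 6 h arrays. Both HRG arrays were lower than both basal arrays, by 0.81 to 0.90. Its log2 difference was -0.86 ± 0.12 (SE, n = 2 arrays a group, limma adjusted p = 0.0061).

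Sars, which charges serine, read 11.58 and 11.51 in basal and 10.86 and 10.84 in HRG cultures at 6 h. The treated arrays agreed within 0.02 and lay below both basal arrays. The difference was -0.69 ± 0.092 (limma adjusted p = 0.0053).

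Wars, the tryptophan enzyme, read 11.08 and 11.11 in basal and 10.70 and 10.37 in HRG cultures. Its treated arrays stood further apart than those of the other synthetases, yet both were below basal. It changed by -0.56 ± 0.11 (limma adjusted p = 0.037).

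Gars, the glycine enzyme, read 11.29 and 11.36 in basal and 10.92 and 10.80 in HRG cultures. It passed narrowly, at -0.47 ± 0.099 (limma adjusted p = 0.045).

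Eprs, just outside the threshold, read 11.27 and 11.23 in basal and 10.86 and 10.77 in HRG cultures. Its difference was -0.43 ± 0.095 (limma adjusted p = 0.051). The other 4 had smaller differences, of -0.40 ± 0.10 for Iars, -0.39 ± 0.11 for Tars, and -0.38 for both Lars (SE 0.097) and Nars (SE 0.093), with limma adjusted p between 0.085 and 0.14. Their treated arrays were also below their basal arrays, as in 9 of 9 synthetases. Over all genes, 18.3% had both HRG arrays below both basal arrays at 6 h and 20.0% had both above.

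By structure and assembly the calls fell on both classes: 2 of 4 class I genes and 2 of 4 class II genes. Of the complex subunits, 0 of 3 were called, with differences from -0.43 to -0.38, and of the free enzymes 4 of 6, with differences from -0.86 to -0.38. At 24 h, 1 of 3 complex subunits and 1 of 6 free enzymes were called. Between the times these counts were 3 of 3 and 5 of 6 without HRG, and 2 of 3 and 1 of 6 with HRG. No test of the difference between those groups was made. The other Iars row read 11.56 and 11.27 in basal and 11.21 and 10.96 in HRG cultures, a difference of -0.33 ± 0.15 (limma adjusted p = 0.46 over rows). At 24 h its HRG difference was -0.09 ± 0.15 (adjusted p = 0.93).

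Leaving out single arrays changed these calls. Without HRG_6h replicate 2 all of these calls were lost, with Yars at -0.82, Sars at -0.68, Gars at -0.41 and Wars at -0.39. Calls over all genes were also fewest without that array, so the loss was not particular to the synthetases. Yars and Sars were called without each of the other 7 arrays. Wars lost its call without Basal_6h replicate 1 (adjusted p = 0.13), Basal_6h replicate 2 (0.094), HRG_24h replicate 1 (0.073) or HRG_24h replicate 2 (0.073). Gars lost it without the same arrays (0.13, 0.12, 0.079 and 0.079) and without HRG_6h replicate 1 (0.16), with the replicate number as a block (0.055) and with arrays centred on their medians (0.051). On only the arrays of the 2 groups compared, Gars (0.083) and Wars (0.089) did not pass, and with the trend and robust options of eBayes 8 of 9 did, all but Tars. Of the 9, 2 were called without either Basal_6h array or either HRG_24h array, and 3 without HRG_6h replicate 1. The sign stayed below 0 in all 135 fits of a synthetase under an alternative.

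Markers of other cell types moved beside these calls. Of 4 measured T cell markers 2 were lower with HRG at 6 h, of 4 B cell markers 1, of 4 dendritic cell markers 1, and of 8 macrophage markers 0 in either direction. The summed T cell markers ranged from 9.82 to 10.13 on the basal and from 9.21 to 9.30 on the HRG arrays (log2 of summed signal), while macrophage markers ranged from 15.76 to 15.82 and from 15.78 to 15.85. B cell marker sums were 11.69 to 11.78 in basal and 11.31 to 11.32 in HRG cultures, and dendritic cell sums 10.92 to 11.05 and 10.53 to 10.56. Their part in the synthetase differences was not tested.

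At 24 h, the question was whether the synthetases still differed after longer contact with HRG. Eprs (1.52-fold) and Gars (1.33-fold) were lower, and 7 of 9 did not pass; 3.48% of all genes were called, 1.05% lower and 2.43% higher. At an unadjusted p under 0.05, 6 were lower and 0 higher, beside 5.22% of all genes lower and 7.48% higher. The median difference was -0.27, beside -0.02 over all genes.

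Eprs read 10.77 and 10.90 on the basal 24 h arrays and 10.22 and 10.23 on the HRG arrays. It had the widest gap of the 9 at this time, with treated arrays that agreed within 0.02, and changed by -0.61 ± 0.095 (n = 2 a group, limma adjusted p = 0.0037). Gars read 10.71 and 10.88 in basal and 10.39 and 10.38 in HRG cultures, a difference of -0.41 ± 0.099 (limma adjusted p = 0.044).

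Yars, which had the largest difference at 6 h, read 9.63 and 10.01 in basal and 9.47 and 9.48 in HRG cultures at 24 h. Its basal arrays lay 0.37 apart, and the difference of -0.35 ± 0.12 did not pass (limma adjusted p = 0.18). Sars read 10.997 and 10.999 on the basal arrays and 10.74 and 10.85 with HRG, a difference of -0.20 ± 0.092. The remaining differences were -0.28 ± 0.093 for Nars, -0.27 ± 0.10 for Iars, -0.18 ± 0.097 for Lars, -0.13 ± 0.11 for Wars and -0.11 ± 0.11 for Tars. In 8 of 9 synthetases both HRG arrays were below both basal arrays, against 21.1% of all genes (19.1% had both above); Tars overlapped, with 8.96 and 9.22 in basal and 8.99 and 8.96 in HRG cultures.

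Gars was called by a narrow margin here too. It lost its call without Basal_24h replicate 2 (-0.32, limma adjusted p = 0.34), HRG_24h replicate 1 (0.25), HRG_24h replicate 2 (0.20) or either HRG_6h array (0.071), under the replicate block (0.054) and with arrays centred on their medians (0.072). Eprs lost it only without HRG_24h replicate 1 (-0.60, adjusted p = 0.056). Without Basal_24h replicate 1, Yars passed at -0.53 (adjusted p = 0.027), and without Basal_24h replicate 2 it stood at -0.16 (0.73). So the count of 2 became 0 without HRG_24h replicate 1, 1 without HRG_24h replicate 2, Basal_24h replicate 2 or either HRG_6h array, and 3 without Basal_24h replicate 1. Beside these, 2 of 4 B cell and 2 of 5 mast cell markers were higher with HRG at 24 h (B cell sums 10.74 to 11.11 in basal and 11.37 to 11.67 in HRG cultures, mast cell sums 12.12 to 12.45 and 12.69 to 13.01). Of 8 macrophage markers 0 were called (sums 15.89 to 15.91 and 16.03 to 16.04). Their part was not tested.

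**Figure D2:**
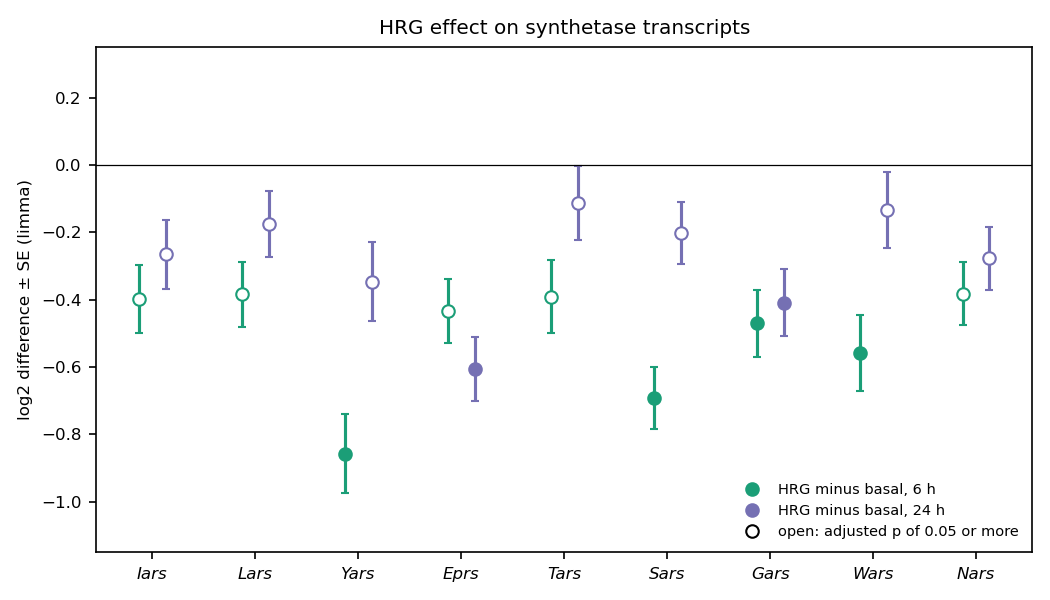
Log2 difference of HRG minus basal cultures (vertical axis, limma estimate ± SE, 2 arrays a group) for each synthetase at 6 h (green) and 24 h (purple), with filled points for an adjusted p under 0.05. All 18 points lie below 0, with 4 filled at 6 h and 2 at 24 h.

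Whether the HRG effect differed between the times was tested by the difference of both effects. None of the 9 synthetases passed in limma (1.47% of all genes did, 1.02% with a difference above 0 and 0.451% below), 3 had a difference above 0 at an unadjusted p under 0.05 (6.67% of all genes, and 4.35% below 0), and with the trend and robust options of eBayes only Sars passed. The effect at 24 h was nearer to 0 in 8 genes, by 0.51 ± 0.17 in Yars (adjusted p = 0.21), 0.49 ± 0.13 in Sars (0.11) and 0.42 ± 0.16 in Wars (0.31). For Eprs it was further from 0, with a difference of -0.17 ± 0.13 (adjusted p = 0.73). Loss of the Yars, Sars and Wars calls between 6 h and 24 h is therefore not shown to be a change of effect.

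The effect of culture time was compared within basal and within HRG cultures. Between 6 h and 24 h without HRG, 8 of 9 transcripts fell, by 1.33-fold (Eprs) to 1.84-fold (Yars), where 9.28% of all genes were called, 5.48% lower and 3.80% higher. The median difference was -0.55, beside 0.03 over all genes. Yars changed by -0.88 ± 0.12 (n = 2 a group, limma adjusted p = 0.00064), Wars by -0.70 ± 0.11, Tars and Iars each by -0.61 (SE 0.11 and 0.10), Sars by -0.55 ± 0.092, Gars by -0.53 ± 0.099, Lars by -0.42 ± 0.097 and Eprs by -0.42 ± 0.095. These 8 had adjusted p up to 0.016. Nars, the asparagine enzyme, read 12.15 and 12.05 at 6 h and 11.83 and 11.90 at 24 h, and its difference of -0.24 ± 0.093 did not pass (adjusted p = 0.16).

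Every basal 24 h array was below every basal 6 h array in 9 of 9 genes (21.7% of all genes, with 23.5% the other way). Lars lost its call without Basal_6h replicate 1 (limma adjusted p = 0.12), Basal_24h replicate 1 (0.096) or Basal_24h replicate 2 (0.058), and Eprs without Basal_6h replicate 1 (0.072) or Basal_24h replicate 1 (0.12). On only the arrays compared Lars (0.059) and Eprs (0.056) did not pass. The other 6 passed in each of the 8 fits without an array. Beside this, 4 of 4 B cell markers were lower at 24 h in basal cultures (sums 11.69 to 11.78 at 6 h and 10.74 to 11.11 at 24 h), as were 2 of 4 dendritic cell markers (sums 10.92 to 11.05 and 9.98 to 10.17) and 1 of 5 mast cell markers (sums 12.63 to 12.75 and 12.12 to 12.45). At an unadjusted p under 0.05, 4 of the 5 mast cell markers were lower, beside 2220 of all 19938 genes lower and 1841 higher. Of the macrophage markers, Cd14 was higher and Gata6 lower. Their part was not tested.

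With HRG present throughout, 3 of 9 synthetases passed between 6 h and 24 h: Eprs (-0.59 ± 0.095, limma adjusted p = 0.0026), Iars (-0.48 ± 0.10, 0.014) and Gars (-0.47 ± 0.099, 0.013) fell, and 6 did not pass, where 7.28% of all genes were called, 2.87% lower and 4.41% higher. The other Iars row had the same difference of -0.48 but a wider error (0.15) and did not pass (adjusted p = 0.086). Between the basal times that row fell by 0.72 ± 0.15 (adjusted p = 0.011). The arrays of Sars overlapped, with 10.86 and 10.84 at 6 h and 10.74 and 10.85 at 24 h (-0.06 ± 0.092). The median was -0.33, beside -0.02 over all genes, and 8 of 9 genes had both later arrays below both earlier ones (26.6% of all genes, with 22.6% the other way). Of these calls, Iars was lost without HRG_6h replicate 1 (adjusted p = 0.14), HRG_6h replicate 2 (0.053), HRG_24h replicate 1 (0.053) or HRG_24h replicate 2 (0.13), and Gars without HRG_6h replicate 1 (0.14), HRG_24h replicate 1 (0.076) or HRG_24h replicate 2 (0.090). Only Eprs was called without HRG_6h replicate 1, HRG_24h replicate 1 or HRG_24h replicate 2, and Yars was called in addition without either Basal_24h array (-0.37, 0.037). Beside this, 2 of 4 T cell, 2 of 5 mast cell and 2 of 8 macrophage markers were higher at 24 h with HRG (T cell sums 9.21 to 9.30 at 6 h and 9.98 to 10.11 at 24 h), and 1 of 4 dendritic cell markers was lower. Their part was not tested. Both time comparisons share their arrays with the HRG comparisons, so the 4 sets of values are given side by side and not as independent results. The test of unequal time courses is the same as that of unequal HRG effects above.

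**Figure D3:**
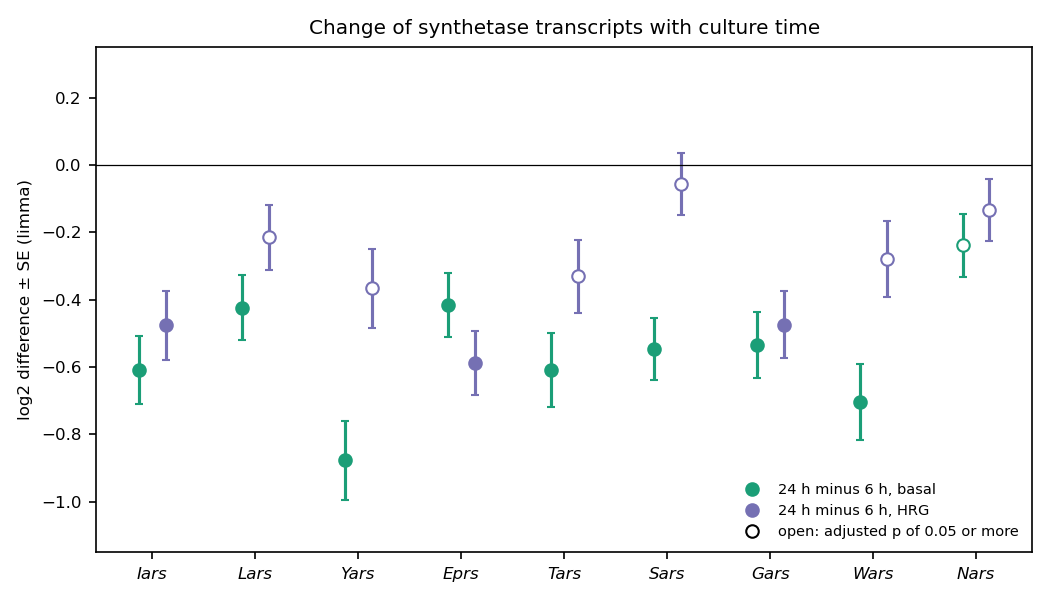
Log2 difference of 24 h minus 6 h cultures (vertical axis, limma estimate ± SE, 2 arrays a group) for each synthetase without HRG (green) and with HRG (purple), with filled points for an adjusted p under 0.05. Without HRG 8 of 9 points are filled and with HRG 3 of 9, and all lie below 0.

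The other cytosolic synthetases give the surrounding of these values. The 9 genes had been listed with earlier results of these arrays known, so the contrast with the rest of the family is a description and was not tested. At 6 h, 1 of 10 measured others was lower and 0 were higher, with a median of -0.01. That gene was Cars, the cysteine enzyme, which read 10.10 and 10.06 in basal and 9.47 and 9.27 in HRG cultures (-0.71 ± 0.099, limma adjusted p = 0.0064). Mars1, the methionine enzyme and a subunit of the multisynthetase complex, read 10.46 and 10.44 in basal and 10.06 and 9.83 in HRG cultures, but did not pass (-0.51 ± 0.11, adjusted p = 0.058). The remaining 8 ran from -0.20 (Farsb) to 0.25 (Tarsl2), and Hars, Kars, Qars and Farsa had differences above 0. At an unadjusted p under 0.05, 3 of the 10 were lower (Cars, Mars1 and Farsb) and 1 was higher (Tarsl2). Over all genes, 6.27% were lower and 4.73% higher at that cut-off. At 24 h, 0 of the 10 were called (2 with an unadjusted p under 0.05), and between the basal times Cars (-0.47 ± 0.099) and Vars (-0.34 ± 0.095) fell.

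Most mitochondrial synthetases are encoded by nuclear genes of their own and serve protein synthesis in that organelle. The list held no such gene as a partner of Gars. Of 16 measured, 0 were called with HRG at 6 h (1 with an unadjusted p under 0.05) or at 24 h (2 unadjusted), with medians of 0.06 and -0.09. The mitochondrial partners of the listed genes, such as Yars2, Sars2 and Wars2, were thus among those not called at either time. Those with an unadjusted p under 0.05 at 24 h were also partners, Nars2 (-0.31 ± 0.13) and Tars2 (-0.25 ± 0.097), both lower. Over all genes, 5.22% were lower and 7.48% higher at that cut-off. At 6 h it was Cars2, which was higher (0.27 ± 0.11). Between the times with HRG, Ears2, the glutamate enzyme, fell by 0.50 ± 0.11 (limma adjusted p = 0.020).

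Genes of the same stress pathway were taken from lists that had also been written with earlier results in view. In the list of ATF4 and its stress targets, 7 of 16 were lower with HRG at 6 h and 0 higher (median -0.45). Ddit3, the transcription factor CHOP, changed by -1.19 ± 0.11, the phosphatase subunit Ppp1r15a by -1.17 ± 0.13, the glutathione-degrading enzyme Chac1 by -1.09 ± 0.12 and the pseudokinase Trib3 by -1.06 ± 0.12. Atf4 itself read 9.83 and 9.89 in basal and 9.42 and 9.33 in HRG cultures, and did not pass (-0.49 ± 0.11, limma adjusted p = 0.056). It had fallen in basal cultures at 24 h, to 9.31 and 9.54 (-0.43 ± 0.11, adjusted p = 0.024). Of the 16, 9 were lower between the basal times and 0 higher (median -0.46). At 24 h, 3 of 16 were lower with HRG: Trib3 (-0.89 ± 0.12), Atf3 (-0.58 ± 0.11) and Atf5 (-0.46 ± 0.098). The median there was -0.08, and 7 of the 16 had differences above 0. For the difference of the effects 2 of the 16 passed, both above 0, beside 1.02% of all genes. Between the times with HRG 3 of the 16 were lower, and Ddit4 was higher (0.89 ± 0.11).

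Amino acid supply genes, which feed the synthetases with substrate, were lower in part. Of 9 amino acid synthesis genes 4 fell with HRG at 6 h (median -0.66): Cth, which makes cysteine, by 1.18 ± 0.19, Asns, asparagine synthetase, by 1.09 ± 0.13, the mitochondrial folate enzyme Mthfd2 by 0.86 ± 0.12 and Aldh18a1, of proline synthesis, by 0.81 ± 0.14. At 24 h 2 of the 9 were lower, Asns (-0.75 ± 0.13) and Mthfd2 (-0.52 ± 0.12). Without HRG, 6 of the 9 were lower at 24 h than at 6 h and 0 higher (median -0.95). Asns makes the substrate of the Nars product, and Nars was not called in any comparison of the main fit. Nars was called under 2 alternatives at 6 h, 2 at 24 h and 1 between the basal times. Of 10 amino acid transporters 4 fell at 6 h (median -0.34): Slc7a5, a carrier of large neutral amino acids, by 1.15 ± 0.14, the cationic carrier Slc7a1 by 0.93 ± 0.14, Slc1a4 by 0.74 ± 0.13 and Slc38a2 by 0.61 ± 0.095. At 24 h only the glycine carrier Slc6a9 was lower (-2.14 ± 0.16, limma adjusted p = 4.5e-05), and the median was again -0.34. At an unadjusted p under 0.05, 7 of the 10 were lower and 0 higher, beside 5.22% of all genes lower and 7.48% higher. Without HRG, 4 of the 10 transporters were lower at 24 h than at 6 h and 0 higher (median -0.14).

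**Figure D4:**
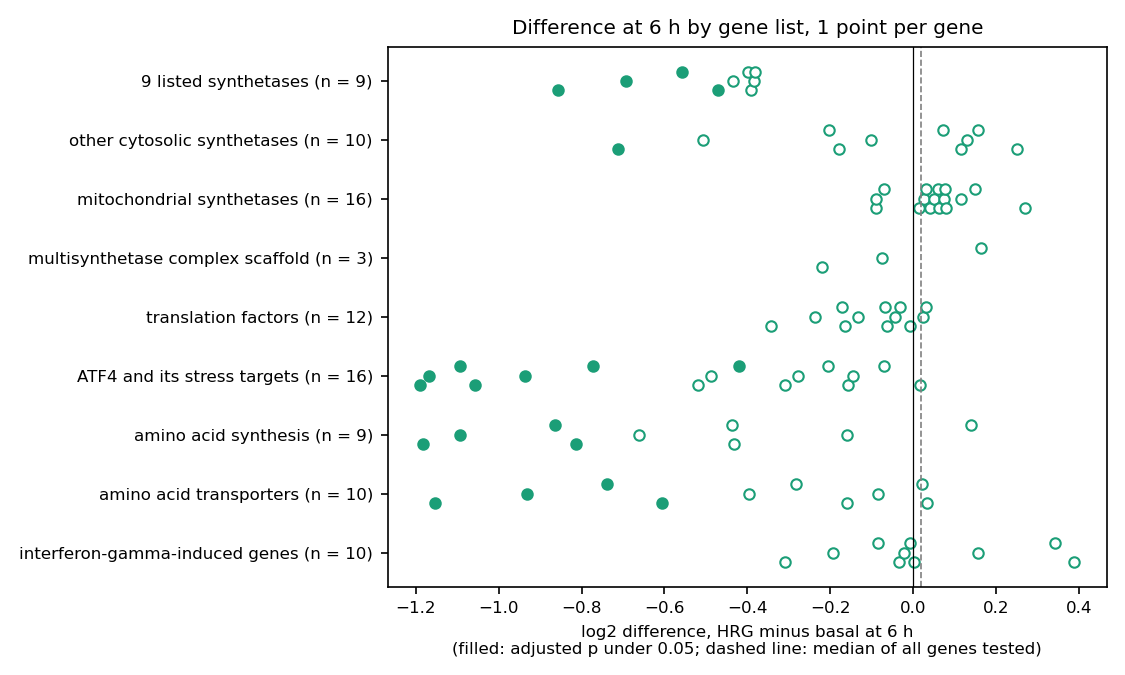
Log2 difference of HRG minus basal cultures at 6 h (horizontal axis, 1 point per gene, 2 arrays a group) for the 9 synthetases and 8 other lists, with filled points for an adjusted p under 0.05 and a dashed line at the median of all genes, 0.02. Filled points are 4 among the listed synthetases, 1 among the other cytosolic and 0 among the mitochondrial synthetases, and 7, 4 and 4 among the ATF4, amino acid synthesis and transporter lists.

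Wars was set beside interferon-γ-induced genes, given its known induction. Of 10 measured, 0 were called with HRG at 6 h (3 with an unadjusted p under 0.05: Irf1 lower, Cxcl9 and Cxcl10 higher), when Wars fell. At 24 h the GTPase gene Gbp5 (0.93 ± 0.18) and the transcription factor gene Irf1 (0.41 ± 0.10) were higher, when Wars did not pass at -0.13. Between the basal times 6 of the 10 fell, among them Gbp5 (-1.78 ± 0.18), Cxcl10 (-1.66 ± 0.13) and Gbp3 (-1.54 ± 0.13), as did Wars.

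Over the 8 arrays, each synthetase followed the mean of the other 8 with a Pearson r from 0.92 (Sars) to 0.98 (Yars). These 8 points share their 4 groups, so r mostly reflects the group means and is given as a description. Among 2127 other genes whose group means spanned at least 0.5, the 8 most like the synthetase mean were Lims1 (r = 0.997), Mthfd2 (0.997), Ap4b1 (0.995), Nfe2l1 (0.994), Asns (0.993), Gtpbp2 (0.993), Ifrd1 (0.992) and the neutral amino acid carrier Slc1a4 (0.991). Asns had the widest span of group means of the 8, 2.01, and Lims1 the narrowest, 0.54. The 16 genes of the ATF4 list had r from -0.61 (Cebpb) to 0.98 (Trib3), with a median of 0.88, and 4 were below 0. Atf4 itself stood at 0.972, Atf3 at 0.17 and Ddit4 at -0.55. The 10 other cytosolic synthetases ran from -0.86 to 0.95 (Mars1), with a median of 0.44 and 3 below 0.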

How the data were processed

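Deposited log2 levels, which the authors had normalized with RMA, were used as given. The submitters' processing notes name Affymetrix Expression Console, RMA and limma; software versions and the genome build were not given in the sources used here. RMA corrects background, quantile-normalizes arrays and summarises probes, which compresses small signals, so folds of dim genes may be understated.

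Of 28853 rows in the table, 21789 carried 1 gene symbol in the platform annotation, 1621 several and 5443 none. Gene IDs matched RefSeq GRCm38.p6 for 21698 rows and changed 0 symbols. Where a gene had more than 1 row (999 genes) the brightest by mean was kept, which left 19938 genes. The linear model (R 4.3.3, limma 3.58.1) held a mean for each of the 4 groups over the 8 arrays, with 4 residual and 7.81 prior degrees of freedom. Tests were two-sided, moderated by eBayes, and Benjamini-Hochberg adjusted over 19938 genes per comparison, at a threshold of 0.05. "Rose", "fell", "lower", "higher" and "called" applied to a comparison mean past that threshold. Errors are standard errors of the model; the number of arrays limits precision.

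The synthetases, the lists and the tests were chosen with earlier results of these data known. Named genes were the 9 synthetases, up to 4 called genes per list and comparison with the largest differences, and the 8 genes most like the synthetase mean (predicted genes, clone names and small RNAs left out). Others named, such as Mars1, the uncalled members of lists and further likeness values, were chosen after their values were seen. In 10 simulated sets of 19938 genes for HRG against basal at 6 h, the test called 9% of genes changed 1.3-fold, 56.2% of those changed 1.5-fold and 97.8% of those changed 2-fold. Each set held 200 changed genes, and the spread of a gene was drawn without regard to its level. These rates are therefore not those of the synthetases in particular. The alternatives were a replicate block, trend and robust options of eBayes, a second quantile normalization, centring of arrays on their medians, dropping the dimmest 30% of genes, averaging a gene's rows, fitting the compared groups alone, and omission of each array in turn. A group left with 1 array was assumed to vary like the other groups.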

Additional observations from a re-analysis of the deposited data

How the results depend on the processing

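The count of synthetases called lower with HRG at 6 h was 4; it was 8 with trend and robust, 2 on only the arrays compared, and 0 to 4 when single arrays were left out. At 24 h the count of 2 became 1 with the replicate block or with arrays centred on their medians, and ran from 0 to 3 without single arrays. Apart from the omission of single arrays, the alternatives gave counts from 1 to 3 at 24 h. For the difference of the effects, 0 became 1 with trend and robust. Between the times with HRG, 3 became 5 with renewed quantile normalization and on only the arrays compared, and ran from 1 to 4 without single arrays. The basal time course had 6 to 9 called lower under every alternative run. The sign turned in 2 cases: Tars at 24 h (0.018 without Basal_24h replicate 2, within a range up from -0.24 when single arrays were left out) and the difference of effects for Gars (-0.029 without Basal_24h replicate 1, within a range up to 0.15).

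No label says that equal replicate numbers share a culture, and deviations of equal-numbered arrays correlated from -0.33 to 0.41 between groups, so the replicate block (3 synthetases lower at 6 h, 1 at 24 h) carries no known pairing. Over all genes, the 249 calls at 6 h became 492 with trend and robust, 155 on only the arrays compared and 21 to 287 without single arrays; the 294 calls for the difference became 547 with trend and robust. Without single arrays the calls at 24 h (694) ran from 182 to 781, for the difference from 56 to 404, for the basal time course (1851) from 1124 to 1817 and with HRG (1452) from 529 to 1680. Between the times with HRG, 572 of all genes were called lower. That count became 876 with renewed quantile normalization and 911 on only the arrays compared. For the basal time course, 1093 genes called lower became 1390 with trend and robust and 786 on only the arrays compared. With HRG at 24 h, 209 became 304 with trend and robust and 186 with arrays centred on their medians. Dim signals were not a limit for the synthetases, all of which stayed when the dimmest 30% of genes were dropped. Simulated 1.3-fold changes were mostly missed, so differences near -0.4 that did not pass are not shown to be absent.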

Other observations

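Other genes of translation were measured beside the synthetases. Of 12 translation factors, 0 were called with HRG at 6 h (1 with an unadjusted p under 0.05) or at 24 h (0 unadjusted), with medians of -0.07 and 0.00. Eif2s2, the β subunit of the initiation factor that brings the first transfer RNA to the ribosome, fell between the basal times by 0.65 ± 0.12 (limma adjusted p = 0.0037). The 3 scaffold genes of the multisynthetase complex (Aimp1, Aimp2 and Eef1e1) were not called in any of the 5 comparisons; at 6 h with HRG they ran from -0.22 to 0.16. The 4 kinases that act on eIF2α and their partner Gcn1 were not called with HRG at either time, with differences from 0.04 to 0.18 at 6 h and from -0.21 to 0.38 at 24 h (0 and 1 with an unadjusted p under 0.05).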
